A study of Mus musculus with 11 samples.

Results

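The alarmin and granule genes described here are 10 transcripts that mark neutrophils: S100a8, S100a9, Lcn2, Camp, Ngp, Ltf, Retnlg, Mmp8, Cxcr2 and Il1b. They were followed among the 53465 genes of a count table of mouse quadriceps, and all 10 were found by symbol. The set was chosen on measured values, because S100a8, S100a9 and Lcn2 had appeared to differ more than 100-fold between libraries without following the treatment. Their levels and their group differences are therefore given as a description, with no test. The mice carried the strain label C57L/6JRj, were 18 months old when treatment began and were treated for 10 weeks with DMSO (5 libraries) or with myriocin (6 libraries), a fungal inhibitor of the enzyme that starts sphingolipid synthesis. The sources used here do not state dose, route, sex or how many mice gave each library, so that the spread between libraries may be partly technical. Each library held 22241131 to 23163721 reads counted in genes, so that 3 counts equal 0.130 to 0.135 CPM (counts per 1000000 gene reads). The tissue label was checked with 6 markers of muscle fibres, which summed to 135880 to 167686 CPM per library.

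Neutrophils are short-lived white blood cells that are made in the bone marrow, circulate in blood and enter tissue during injury or infection. They carry their antimicrobial proteins in granules that are filled in sequence as the cell matures: the azurophil granules first, with myeloperoxidase and elastase, then the specific granules, with lactoferrin, cathelicidin and lipocalin 2, and then gelatinase granules. S100a8 and S100a9 encode the subunits of calprotectin, a calcium- and zinc-binding protein of the neutrophil cytosol that acts as an alarmin when it is released. In bulk tissue, fewer cells of a type and less RNA per cell cannot be told apart.

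S100a8 (chromosome 3, 90668978 to 90670035, plus strand) and S100a9 (chromosome 3, 90692632 to 90695721, minus strand) lie near each other. Camp (chromosome 9, 109847379 to 109849617, minus strand), Ngp (110419747 to 110423012, plus strand) and Ltf (111019271 to 111042767, plus strand) share a stretch of chromosome 9, and Mmp8 (7558456 to 7568485, plus strand) lies elsewhere on it. Lcn2 (32384633 to 32388252) and Il1b (129364570 to 129371139) are on the minus strand of chromosome 2, Retnlg (48872621 to 48874496) is on the plus strand of chromosome 16 and Cxcr2 (74153989 to 74161246) is on the plus strand of chromosome 1. Coordinates are those of GRCm38. Il1b overlaps an annotated antisense transcript, Il1bos, and with no strand setting stated its reads cannot be told from those of Il1bos. The other 9 overlap no annotated gene.

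The promoter windows of 4 of these genes are printed as examples, and each of the 4 holds a match to a motif. Rising and falling together across the libraries does not set them apart from the other members. Camp, whose window is not printed, had a rank correlation with S100a9 of 0.936, against 0.912 for Ngp and 0.890 for Ltf. Each window runs from 250 bases before to 50 bases after the RefSeq gene start (GRCm38.p6), 5′ to 3′ on the gene's strand, and capitals mark matches to the motifs named after it. The windows are chr3:90668821-90669120 (plus) for S100a8, chr3:90695672-90695971 (minus) for S100a9, chr9:110419558-110419857 (plus) for Ngp and chr9:111019042-111019341 (plus) for Ltf.
S100a8: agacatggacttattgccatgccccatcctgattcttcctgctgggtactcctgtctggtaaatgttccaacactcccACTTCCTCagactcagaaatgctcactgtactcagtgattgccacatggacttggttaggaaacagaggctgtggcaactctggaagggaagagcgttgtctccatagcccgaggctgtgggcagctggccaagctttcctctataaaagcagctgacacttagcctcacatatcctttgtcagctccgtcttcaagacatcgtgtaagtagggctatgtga
S100a9: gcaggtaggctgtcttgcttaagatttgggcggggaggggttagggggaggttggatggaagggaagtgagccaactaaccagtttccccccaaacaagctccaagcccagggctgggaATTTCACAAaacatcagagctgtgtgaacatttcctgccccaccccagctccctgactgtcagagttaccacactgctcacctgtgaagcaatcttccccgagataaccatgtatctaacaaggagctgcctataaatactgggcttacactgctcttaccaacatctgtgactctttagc
Ngp: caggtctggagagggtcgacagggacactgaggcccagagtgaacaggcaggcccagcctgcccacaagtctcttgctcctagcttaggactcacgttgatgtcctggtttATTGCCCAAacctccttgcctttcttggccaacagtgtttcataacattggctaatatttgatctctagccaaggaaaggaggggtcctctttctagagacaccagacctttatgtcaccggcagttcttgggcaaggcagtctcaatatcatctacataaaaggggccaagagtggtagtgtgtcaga
Ltf: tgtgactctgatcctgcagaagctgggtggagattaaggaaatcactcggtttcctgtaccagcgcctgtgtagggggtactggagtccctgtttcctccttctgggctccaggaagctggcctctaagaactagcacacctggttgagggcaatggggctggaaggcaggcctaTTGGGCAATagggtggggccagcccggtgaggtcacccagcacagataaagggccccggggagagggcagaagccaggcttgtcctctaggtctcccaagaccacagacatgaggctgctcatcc

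All 10 genes had a window, and 3 motifs were searched on both strands. A C/EBP-type motif, TTNNGNAAT, was found in the windows of S100a9, Ngp, Ltf and Il1b, that is in 4 of 10, and in 11.5% of all 32851 promoters of the table. A PU.1-type motif, GAGGAAGT, was found in S100a8 and Mmp8, against 3.20% of all promoters. An NF-κB-type motif, GGGA with 4 free bases and then CC, was found in Camp, at position 36 counted from the start, against 20.7% of all promoters. C/EBP proteins and PU.1 are transcription factors of the granulocyte line, and NF-κB is a factor of inflammatory signalling. The match in Ngp begins at position -139 from the start and reads ATTGCCCAA. That in Ltf begins at position -75 and reads TTGGGCAAT, the reverse complement of the same 9 bases, which 48 promoters in all (0.146%) held on either strand. The windows of Lcn2, Retnlg and Cxcr2 held none of the 3 motifs. A match is a description of letters and does not show a bound site.

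The alarmin pair stood far above the rest in 1 DMSO library and moderately above it in 3 libraries, 1 of them with DMSO and 2 with myriocin. S100a8 in DMSO replicates 1 to 5 was at 0.220, 150.4, 0.617, 6.49 and 0.0899 CPM. In myriocin replicates 1 to 6 it was at 0.0432, 0.566, 0.656, 13.1, 20.01 and 0.176 CPM. The groups overlapped, with DMSO replicate 2 above and myriocin replicate 1 below the range of the other group, and the medians were 0.617 CPM with DMSO and 0.611 CPM with myriocin. S100a9 in DMSO replicates 1 to 5 was at 0.395, 244, 0.661, 10.9 and 0.270 CPM. In myriocin replicates 1 to 6 it was at 0.302, 1.09, 0.831, 20.3, 30.9 and 0.351 CPM. DMSO replicate 2 was again highest, followed by myriocin replicates 5 and 4 and DMSO replicate 4, with the other 7 libraries at or below 1.09 CPM.

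**Figure D1:**
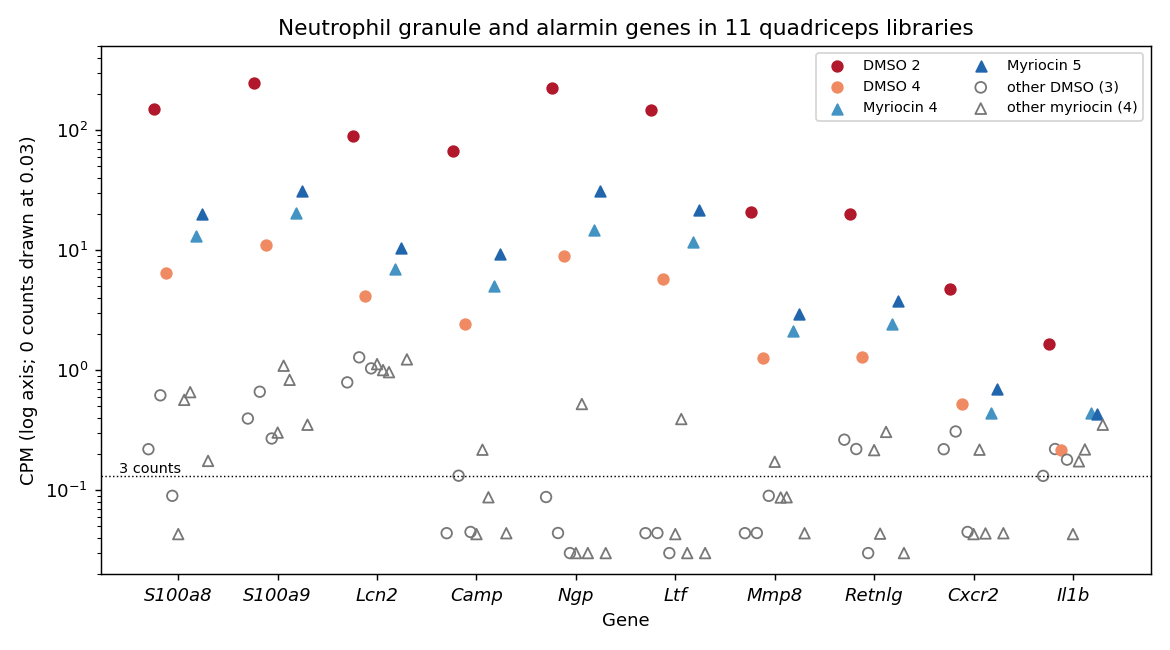
CPM of the 10 genes (log axis, genes with 0 counts drawn at 0.03) in each of the 11 libraries, with circles for DMSO and triangles for myriocin and the dotted line at 3 counts. DMSO replicate 2 is highest for all 10 genes, and myriocin replicates 5 and 4 and DMSO replicate 4 stand between it and the other 7 libraries for 9 of them.

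The transcripts of specific granule proteins followed the same libraries. Ngp, neutrophilic granule protein, a relative of the cathelicidins, was at 0.0879, 224, 0.0441, 8.87 and 0 CPM in DMSO replicates 1 to 5. In myriocin replicates 1 to 6 it was at 0, 0.522, 0, 14.6, 31.2 and 0 CPM. It was thus absent from the counts of 4 libraries, in which 0 counts allow up to 0.135 CPM. Ltf, the iron-binding lactoferrin, was at 0.0439, 147, 0.0441, 5.76 and 0 CPM with DMSO and at 0.0432, 0.392, 0, 11.7, 21.7 and 0 CPM with myriocin, in replicate order. Camp, the antimicrobial cathelicidin, was at 0.0439, 66.5, 0.132, 2.42 and 0.0450 CPM with DMSO and at 0.0432, 0.218, 0.0874, 5.01, 9.26 and 0.0439 CPM with myriocin. In these 3 genes the 7 low libraries stayed at or below 0.522 CPM, and myriocin replicate 2 was the highest of the 7 for each.

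Lcn2, lipocalin 2, which binds bacterial iron carriers and is also made by epithelial and fat cells, did not fall as low as the other granule genes. It was at 0.791, 88.8, 1.28, 4.16 and 1.03 CPM in DMSO replicates 1 to 5. In myriocin replicates 1 to 6 it was at 1.12, 1.001, 0.962, 6.94, 10.4 and 1.23 CPM. The 7 low libraries lay within a narrow band from 0.791 to 1.28 CPM, where S100a8 ranged from 0.0432 to 0.656 CPM. Mmp8, the neutrophil collagenase, reached 20.7 CPM in DMSO replicate 2, 2.91 and 2.11 CPM in myriocin replicates 5 and 4 and 1.26 CPM in DMSO replicate 4. It stood at 0.0439 to 0.173 CPM elsewhere.

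The secreted and signalling members kept most of this order at lower levels. Retnlg, a resistin-like protein secreted by mouse granulocytes, was at 20.1 CPM in DMSO replicate 2, 3.78 CPM in myriocin replicate 5, 2.42 CPM in myriocin replicate 4 and 1.30 CPM in DMSO replicate 4, and at 0 to 0.306 CPM elsewhere. Cxcr2, the chemokine receptor that draws neutrophils out of the marrow and into tissue, reached 4.75 CPM in DMSO replicate 2. It was at 0.696 CPM in myriocin replicate 5, 0.519 CPM in DMSO replicate 4 and 0.439 CPM in myriocin replicate 4, with 0.0432 to 0.309 CPM elsewhere. Il1b, the inflammatory cytokine interleukin 1 beta, which macrophages and monocytes also make, was the least variable member. Its highest value was 1.66 CPM, again in DMSO replicate 2, and it lay between 0.0432 and 0.439 CPM in the other 10 libraries, with DMSO replicate 4 at 0.216 CPM among the low ones.

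The fold between the highest and the lowest library was set by very few reads at the low end. For S100a8 it was 3484-fold, with a 95% counting interval from 624.9 to 137658, since the lowest library had 1 read. For S100a9, with 6 reads in the lowest library, it was 904-fold (415 to 2463). Lcn2, with 18, gave 112-fold (70.9 to 189.9) and Cxcr2, with 1, gave 110.0-fold (19.3 to 4384), the values just inside the 100-fold criterion. Il1b, at 38.3-fold (6.48 to 1554), lay outside it. Ngp and Ltf, each with libraries at 0, were at least 1661-fold and at least 1093-fold higher in DMSO replicate 2 than the level of 3 counts in DMSO replicate 5, and Retnlg at least 149-fold. These intervals cover counting error only. Ranked by the SD of log2 CPM over the 11 libraries among 15845 genes with at least 50 counts, Ngp, Ltf, S100a8, S100a9 and Camp held ranks 1 to 5. Lcn2 held rank 24, Cxcr2 rank 82 and Il1b rank 337. The SD was 4.18 for Ngp and 0.93 for Il1b, against a median of 0.22 over those genes.

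In the 4 libraries with the high values, the shares of the abundant members in these reads differed far less than the amount. The shares of Ngp, Retnlg, Cxcr2 and Il1b were not equal. The 10 genes together took 22224 reads in DMSO replicate 2, 3017 in myriocin replicate 5, 1756 in myriocin replicate 4 and 968 in DMSO replicate 4. S100a9 made up 25.2% of them (exact 95% interval 24.6% to 25.8%), 23.6% (22.1% to 25.1%), 26.4% (24.3% to 28.5%) and 26.0% (23.3% to 28.9%) in that order. Ngp made up 23.1% (22.6% to 23.7%), 23.8% (22.3% to 25.3%), 19.0% (17.2% to 20.9%) and 21.2% (18.6% to 23.9%). Its interval in myriocin replicate 4 thus lay below those in DMSO replicate 2 and myriocin replicate 5. Lcn2 made up 9.17%, 7.89%, 8.998% and 9.92%. These shares differed by far less than the amounts, which spanned 41.9 to 968 CPM. Cxcr2 made up 0.490% (exact 95% interval 0.403% to 0.591%) in DMSO replicate 2 and 1.24% (0.642% to 2.16%) in DMSO replicate 4. Il1b made up 0.171% (0.121% to 0.235%) in DMSO replicate 2 and 0.569% (0.273% to 1.04%) in myriocin replicate 4. The intervals of each of these pairs did not overlap. The pairs were picked after the values were seen, and the second values rest on 12 reads of Cxcr2 and 10 of Il1b. Retnlg's intervals in DMSO replicate 2 (1.89% to 2.27%) and myriocin replicate 5 (2.32% to 3.54%) did not overlap either. Per kilobase of annotated exon, S100a8 stood at 0.464, 0.487, 0.484 and 0.448 of the level of S100a9, and Ngp at 0.393, 0.431, 0.307 and 0.347 of it. Cxcr2 stood at 0.00334, 0.00385, 0.00370 and 0.00816 of it.

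The other 7 libraries held 39 to 99 reads of the 10 genes, and their make-up was different. Lcn2 took 23.2% to 59.0% of these reads, its lowest share being that of myriocin replicate 2 (exact 95% interval 15.3% to 32.8%) and its highest that of DMSO replicate 5 (42.1% to 74.4%). Each of these intervals lay above those of the 4 libraries with high values. Ngp took 12.1% in myriocin replicate 2, 3.92% in DMSO replicate 1, 1.23% in DMSO replicate 3 and 0 elsewhere. In DMSO replicate 5 and myriocin replicates 1, 3 and 6, where Ngp had 0 reads, S100a9 had 6, 7, 19 and 8 reads. The low libraries thus kept Lcn2 and some S100a9 with few or no reads of Ngp.

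**Figure D2:**
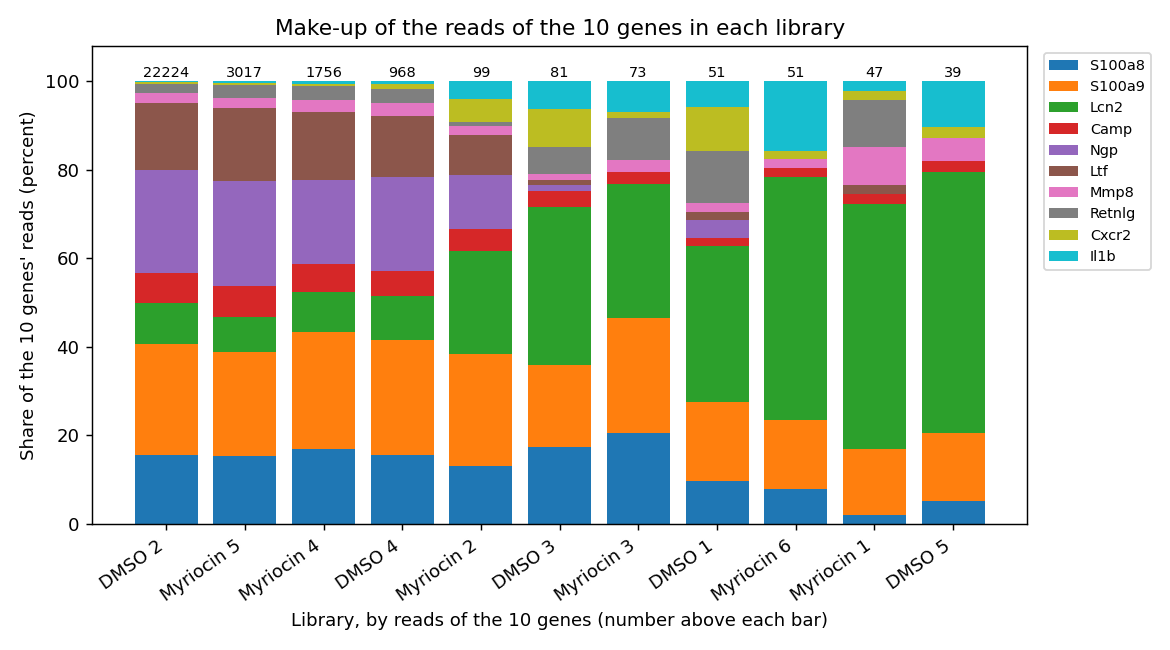
Share of each gene (percent) in the reads of the 10 genes, 1 bar per library, with the number of those reads above the bar. In the 4 libraries with 968 to 22224 reads the shares of the abundant genes differ far less than the number of reads. Lcn2 takes 23.2% to 59.0% in the 7 libraries with 39 to 99 reads.

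Between treatments the 10 genes were lower on average with myriocin, by less than the spread between libraries. S100a8 averaged 31.6 ± 66.5 CPM (SD, n = 5) in the DMSO libraries and 5.76 ± 8.64 CPM (SD, n = 6) in the myriocin libraries, the SD exceeding the mean in both. Without DMSO replicate 2 the DMSO mean was 1.86 ± 3.10 CPM. For Lcn2 the means were 19.2 ± 38.9 CPM and 3.60 ± 4.05 CPM, and 1.81 ± 1.57 CPM for DMSO without replicate 2. On the log2 CPM scale, myriocin minus DMSO was negative for all 10 genes, from -1.05 for Cxcr2 to -0.23 for Il1b, with -0.66 for S100a8, where the pooled SD between libraries was 3.46. Leaving out DMSO replicate 2 made the difference positive for 9 of 10, for example 0.87 for S100a8 and 1.22 for Ltf, with Cxcr2 at -0.28. Without all 4 libraries with high values it was 0.10 for S100a8, 0.08 for Lcn2 and -0.63 for Cxcr2. In the fit over all genes, 4 of the 10 passed the filter on low counts (S100a8, S100a9, Lcn2 and Ngp), and 0 were called at an adjusted p under 0.05 with edgeR's quasi-likelihood test, as were 0% of the 14117 genes tested. Since the set was chosen partly for not following treatment, nothing is read from that count.

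**Figure D3:**
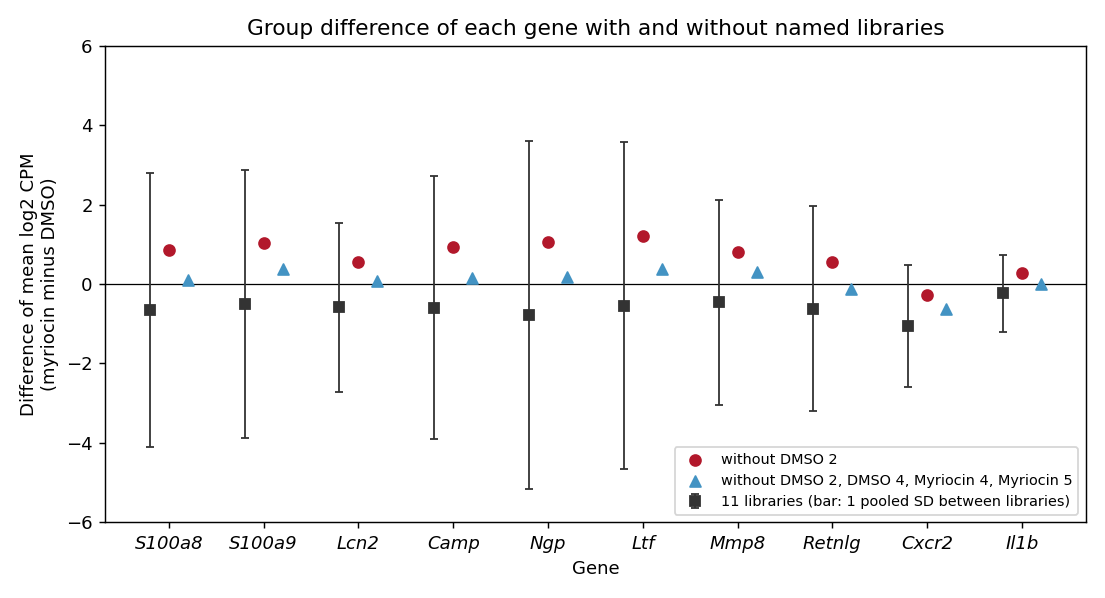
Difference of mean log2 CPM, myriocin minus DMSO, for each gene, with squares and bars (1 pooled SD) for all 11 libraries, circles without DMSO replicate 2 and triangles without the 4 libraries with high values. Squares lie below 0 for all 10 genes and circles above 0 for 9.

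Genes of the neutrophil line that are not among the 10 showed the same libraries on top. The list of azurophil granule and marrow precursor genes holds granule enzymes and other genes of early granulocyte precursors, which are found mainly in bone marrow. Mpo, myeloperoxidase, was at 24.96 CPM in DMSO replicate 2, 5.09 CPM in myriocin replicate 5, 3.46 CPM in DMSO replicate 4 and 2.90 CPM in myriocin replicate 4, and at 0 to 0.1306 CPM in the other 7. Elane, neutrophil elastase, was at 17.3, 2.83, 1.39 and 1.93 CPM in the same libraries and at 0 to 0.1306 CPM elsewhere. Prtn3, proteinase 3, was at 18.8, 2.39, 1.56 and 1.63 CPM, and at 0 to 0.225 CPM elsewhere. All 8 genes of this list were highest in DMSO replicate 2. For 6 of the 8 the 4 libraries lay above each of the other 7. That held for 9 of the 10 members and for 0.694% of the 15845 genes with at least 50 counts.

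The exact order of DMSO replicate 2, myriocin replicate 5, myriocin replicate 4, DMSO replicate 4 and then the rest held for 8 of the 10 members, against 0.227% of those 15845 genes. It also held for 5 of the 8 azurophil granule and precursor genes. DMSO replicate 2 was also the highest library for 24.2% of all these genes, and the members' rank there is read against that share. The order was seen in the members first and then counted, and the members' count describes the values that chose them. Relative to 100 reads of S100a9, Mpo had 10.2 reads in DMSO replicate 2, 16.5 in myriocin replicate 5, 14.3 in myriocin replicate 4 and 31.7 in DMSO replicate 4. Elane had 7.11, 9.14, 9.503 and 12.7 reads. Mpo and Elane were thus lowest against S100a9 in the library with the highest levels. Prtn3, at 7.72, 7.74, 7.99 and 14.3 reads, was nearly equal outside DMSO replicate 4. Chil3 went the other way, with 23.4 reads in DMSO replicate 2 and 19.0 to 21.7 in the others. No intervals were computed for these ratios.

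Among 24 genes of other proteins of mature neutrophils, 19 had at least 50 counts. All 19 were highest in DMSO replicate 2 and for 6 the 4 libraries lay above the rest. Over all genes with that many counts these shares were 24.2% and 0.694%. Chil3, a chitinase-like protein, was at 56.9, 6.70, 3.87 and 2.34 CPM in DMSO replicate 2, myriocin replicates 5 and 4 and DMSO replicate 4, with 0 to 0.306 CPM elsewhere. The surface protein Cd177 followed at 25.9, 4.57, 3.16 and 1.21 CPM, with 0 to 0.175 CPM elsewhere. Ly6g, the surface marker by which mouse neutrophils are sorted, was at 1.83, 0.217, 0.176 and 0.173 CPM and had 0 counts in the other 7. Chil3, Cd177 and Ly6g were named after their values were seen. Members of the list with the highest mean levels, which other cells also make, differed less. The plasma protein haptoglobin, Hp, lay between 5.49 and 53.3 CPM, the oxidase subunit Cyba between 6.91 and 19.5 CPM and the glycoprotein Lrg1 between 11.9 and 36.0 CPM.

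Of 15 receptors carried by neutrophils, 13 had at least 50 counts and 12 were highest in DMSO replicate 2, with the 4 libraries above the rest for 5. These are read against 24.2% and 0.694% of all genes with that many counts. Csf3r, the receptor of granulocyte colony-stimulating factor, reached 10.3 CPM there and 2.51 to 3.18 CPM in the 3 libraries that followed, against 0.527 to 1.72 CPM elsewhere. It was named after its values were seen. The more widely expressed receptors Cxcr4 (2.18 to 5.53 CPM), C5ar1 (1.80 to 5.23 CPM) and Ptafr (1.71 to 4.45 CPM) spanned little. Ltb4r1, the leukotriene B4 receptor, was at 3.70 CPM in DMSO replicate 2, and the other 10 libraries lay between 0.174 and 0.909 CPM.

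Signals that draw neutrophils into tissue were scarce. Of 13 chemokines and cytokines, Csf2 and Il17a had 0 counts in all libraries, which allows up to 0.135 CPM in each. Cxcl1, a main ligand of Cxcr2, ranged from 0.132 to 1.09 CPM, and Cxcl2, another, reached 0.653 CPM in DMSO replicate 2 with 0 to 0.1306 CPM elsewhere. Cxcl2 was named after its values were seen. Csf1, the growth factor of macrophages, averaged 13.8 ± 3.51 CPM (SD, n = 5) in the DMSO libraries and 12.9 ± 2.04 CPM (SD, n = 6) in the myriocin libraries. Ccl2, which attracts monocytes, ranged from 0.270 to 1.66 CPM. Cxcl1, Csf1 and Ccl2 were the 3 genes of this list with at least 50 counts. All 3 were highest in DMSO replicate 2, as were 24.2% of all genes with that many counts.

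Most receptors and targets of alarmins and interleukin 1 named here varied little beside the members. The interleukin 1 receptor Il1r1 lay between 6.43 and 10.8 CPM, the adaptor Myd88 between 4.96 and 8.15 CPM and the pore protein Gsdmd between 4.58 and 5.67 CPM. Of 16 acute-phase and inflammatory target genes, 0 of the 13 with at least 50 counts had the 4 libraries above the rest. Over all genes with that many counts 0.694% did, so that 0 of so few does not set this list apart. Their most abundant members were the metalloreductase Steap4 (27.9 to 49.8 CPM), the inhibitor Nfkbia (24.2 to 44.2 CPM) and the factor Cebpd (10.5 to 39.6 CPM). Each of these 3 was highest in DMSO replicate 2, as were 8 of the 13 and 24.2% of all genes with at least 50 counts. Endothelial adhesion molecules also peaked there, 5 of 5 against that 24.2%, with Vcam1 at 8.58 CPM against 3.28 to 6.95 CPM elsewhere. Icam1 ranged from 3.38 to 7.14 CPM and Icam2 from 2.45 to 5.84 CPM.

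Other members of the S100 family did not have the 4 libraries apart from the rest, though several peaked in DMSO replicate 2. Of 7 with at least 50 counts, 0 had the 4 libraries above the rest. Over all genes with that many counts 0.694% did, so that 0 of so few does not set this list apart. DMSO replicate 2 was highest for 4 of them, against 24.2% of all genes with that many counts. S100a11 was at 26.5 CPM in DMSO replicate 2 and at most 13.9 CPM elsewhere, and S100a10 at 25.4 CPM and at most 18.7 CPM. These 2 genes were named after their values were seen. S100a1, which binds calcium in muscle fibres, lay between 58.5 and 86.2 CPM, S100a6 between 22.1 and 39.6 CPM and S100a16 between 32.3 and 45.9 CPM. The whole list summed to 152 to 228 CPM, a range of values next to which S100a8 and S100a9 together ran from 0.345 to 394 CPM.

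Tested for treatment, the companion genes, which played no part in choosing the members, gave 0 calls. Of 105 genes in 8 lists, 58 passed the filter, 9 with positive and 49 with negative log2 fold changes. Their median was -0.22, against -0.01 over all 14117 genes. Of the 83 companion genes with at least 50 counts, 67 were highest in DMSO replicate 2, as were 24.2% of all genes with that many. The part of that library in the signs was not tested. With edgeR 0 of the 58 passed at an adjusted p under 0.05 (smallest adjusted p 0.936) and 1 had an unadjusted p under 0.05, where 4.68% of all tested genes did. DESeq2 also called 0. It gave an unadjusted p under 0.05 to 4 of 86 companion genes and 756 of 29217 genes in all, and edgeR without DMSO replicate 5 gave one to 6 of 66 and 601 of 14263, so that the companion share was below that of all genes with all libraries in edgeR and above it in both of these. The 1 gene was Tlr2, a receptor of bacterial lipoproteins, with means of 2.51 ± 0.694 CPM (SD, n = 5) in the DMSO libraries and 1.71 ± 0.493 CPM (SD, n = 6) in the myriocin libraries (log2 fold change -0.51, SE 0.21; edgeR adjusted p = 0.936). Of the other genes named here, the smallest p-values belonged to the endotoxin-binding protein Lbp (-0.30, SE 0.14), S100a13 (-0.28, SE 0.14) and Ltb4r1 (-1.24, SE 0.62), none of which passed. None of the 8 azurophil granule and precursor genes passed the filter, so that they were not tested.

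Markers of other cell types moved with some of these libraries, and their part in the results was not tested. Adipocyte markers (6 of 6 detected) summed to 1611 CPM in DMSO replicate 2 and 633 CPM in myriocin replicate 4, against 262 to 471 CPM in the other 9 libraries. Platelet markers (6 of 6) summed to 36.4 CPM in DMSO replicate 2 and 15.8 and 12.0 CPM in myriocin replicates 5 and 4. In DMSO replicate 4 they summed to 9.61 CPM, above the 6.22 to 8.77 CPM of the other 7. The platelet sums were thus in the order of the members, as was 1 of the 6 genes, Ppbp. Erythroid markers (7 of 7 found, of 8 listed) summed to 236 and 213 CPM in myriocin replicates 4 and 5 and to 128 CPM in DMSO replicate 4. In DMSO replicate 2, the library highest in neutrophil genes, they summed to 58.4 CPM, within the range of 46.1 to 112 CPM of the 7 low libraries. Monocyte markers (6 of 6) summed to 83.4 CPM in DMSO replicate 2, 16.4 and 11.8 CPM in myriocin replicates 5 and 4 and 11.2 CPM in DMSO replicate 4. The other 7 lay at 5.08 to 10.5 CPM. This order came from Chil3, which is also on the neutrophil list and supplied 56.9, 6.70, 3.87 and 2.34 CPM of these sums. Chil3 was the only 1 of the 6 genes with the 4 libraries above the other 7. Ccr2 was at 4.08 CPM in myriocin replicate 4 and 4.85 CPM in DMSO replicate 4, below the 8.07 CPM of myriocin replicate 1. Summed levels over whole groups overlapped for each of these lists.

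In the macrophage, hepatocyte, mast cell, T and NK cell, B cell and keratinocyte lists, the 4 libraries did not all lie above the other 7. Macrophage markers (11 of 11) summed to 132 to 209 CPM with DMSO and 102 to 237 CPM with myriocin, lowest in myriocin replicates 4 and 5. Hepatocyte markers (7 of 7) were high in DMSO replicates 4 and 5 and myriocin replicate 4, at 104 to 125 CPM, and lowest in DMSO replicate 2, at 6.10 CPM. Mast cell markers (6 of 6) ran from 10.4 to 22.1 CPM, and T and NK cell markers (6 of 6) from 4.88 to 9.79 CPM. B cell markers (6 of 6) ran from 145 to 326 CPM, nearly all from the immunoglobulin gene Ighm, with the highest sum in myriocin replicate 6. Of the keratinocyte markers, whose cells can also make S100a8 and S100a9, Krt5 and Krt15 had 0 counts in all libraries, and the sum of 6 was 1.51 to 2.61 CPM.

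**Figure D4:**
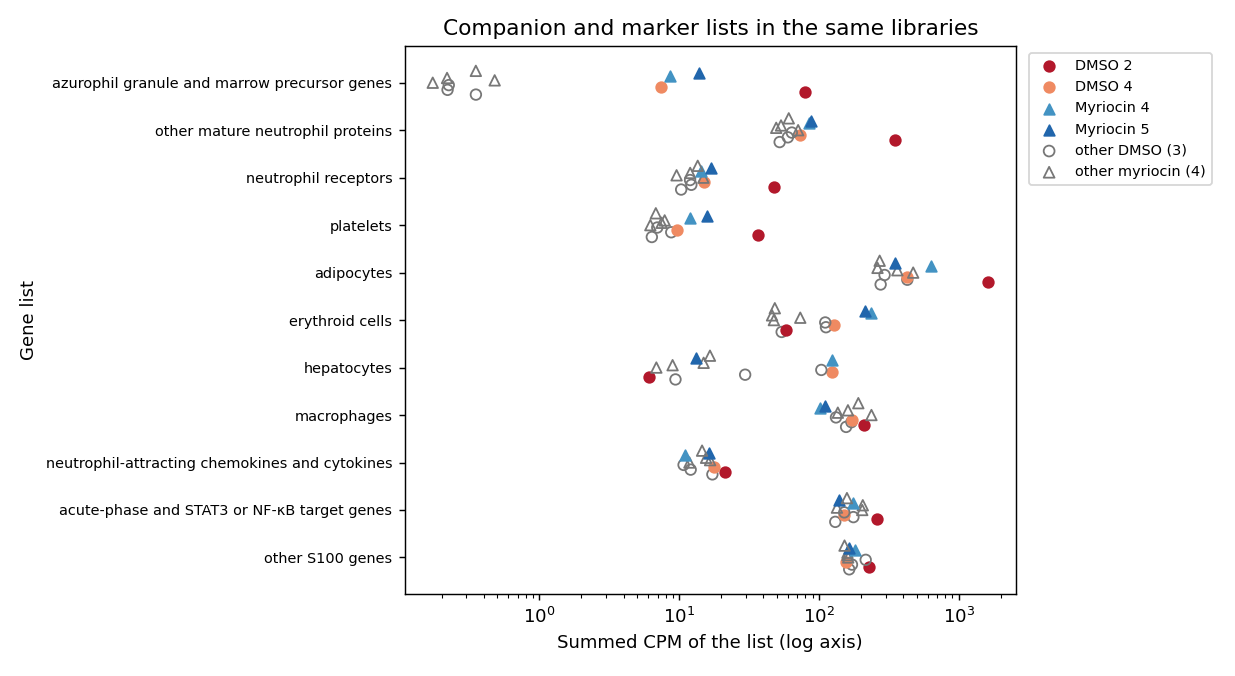
Summed CPM (log axis) of 11 gene lists in each library, with circles for DMSO and triangles for myriocin. The azurophil granule and precursor list spans 0.173 to 79.5 CPM with the 4 coloured libraries apart from the rest, whereas the other S100 genes span 152 to 228 CPM.

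The genes whose pattern over the 11 libraries was most like that of the members were of mixed kinds, and several of them spanned little. Likeness was the rank correlation with the members over genes of at least 100 counts and is given as a description. The libraries are of like depth, marker levels of other cells differ between them, and ranks among the low libraries rest on few reads. Nearest to the mean of S100a8 and S100a9 were Elane (Spearman's rho 0.961), the platelet tubulin Tubb1 and the splicing protein Rbmx (both 0.936), Cd177 (0.921) and Chil3 (0.918). Rbmx had a small span, from 14.2 to 20.6 CPM, with a rank order like that of the alarmins and a size of change unlike theirs (Pearson's r 0.764, against 0.993 for Elane; 11 libraries). Nearest to Lcn2 were the potassium channel Kcna5 (0.982), the platelet chemokine Ppbp and the adhesion protein Nectin2 (both 0.927), Rab44 (0.918) and the myeloid receptor Cd300lf (0.909). Kcna5 spanned 7.07 to 12.5 CPM and Nectin2 1.75 to 5.45 CPM. Nearest to the mean of Camp, Ngp and Ltf were Mettl9 (0.973), Elane (0.970), Nrg4 (0.918), Rbmx (0.909) and Ywhaq (0.891). Mettl9 spanned 13.1 to 19.9 CPM and Ywhaq 9.58 to 16.03 CPM. Among the members themselves, rho ran from 0.464 for Il1b with Mmp8 to 0.977 for Ltf with Ngp.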

How the data were processed

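Total RNA of quadriceps was sequenced by DNBseq, per the labels' protocols. The authors deposited raw read counts per Ensembl gene, with the aligner STAR (2.5.2b), the counter HTSeq (0.6.0) and the build GRCm38 named in the submitters' processing notes. The sources used here state neither strand setting nor annotation release. HTSeq's 5 summary lines (24.8% to 28.2% of a library) were left out. Symbols, coordinates and exon lengths came from GENCODE M21 (53360 of 53465 genes matched), and promoters from RefSeq (GRCm38.p6). CPM are counts per 1000000 gene reads, and log2 CPM uses TMM scaling and a prior count of 2.

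Treatment was tested with edgeR 4.0.16 in R 4.3.3 (filterByExpr, TMM, robust quasi-likelihood F test) over 14117 genes, with Benjamini-Hochberg adjustment and a threshold of 0.05, and the code was tested on simulated data. Alternatives were DESeq2 1.42.0, its size factors, no TMM, no filter, a replicate block and leaving out libraries. The members, lists and tests were chosen with earlier results of these data known. Named genes were, per companion list, the 3 with the highest mean CPM and those with the smallest p (unadjusted p under 0.05, or else the lowest), and the 5 most alike genes per pattern. Counts limit precision, and reads may include PCR copies.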

Additional observations from a re-analysis of the deposited data

Results flagged for a closer look

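In DMSO replicate 2 the gap of all 10 members to the other 4 DMSO libraries was larger than Dixon's 95% limit. The members were chosen for their spread between libraries, so this is a description and no test. Their values there were 150 CPM for S100a8, 244 CPM for S100a9, 88.8 CPM for Lcn2, 66.5 CPM for Camp, 224 CPM for Ngp and 147 CPM for Ltf. Mmp8 was at 20.7 CPM, Retnlg at 20.1 CPM, Cxcr2 at 4.75 CPM and Il1b at 1.66 CPM.

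The same library was beyond this limit for 9 named companion genes. These were Mpo (25 CPM), Elane (17.3 CPM), Prtn3 (18.8 CPM), Hp (53.3 CPM), Lrg1 (36 CPM), Ltb4r1 (3.7 CPM), Steap4 (49.8 CPM), Nfkbia (44.2 CPM) and Vcam1 (8.58 CPM). Within the myriocin group, only Tlr2 had a library beyond it among the genes checked, myriocin replicate 1 at 2.68 CPM. Among the named companion genes alone, 10 of 56 groups were beyond the limit. For normally distributed values, chance puts about 1 in 20 independent groups there. CPM values need not be normally distributed, and these genes share their libraries and are not independent.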

How the results depend on the processing

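The number of genes called between treatments was 0 in edgeR under each alternative run and 3 with DESeq2, and that of companion genes was 0 in all, DESeq2 included. At an unadjusted p under 0.05 the companion count was 1 with all libraries and 0 (without myriocin replicate 3) to 6 (without DMSO replicate 5) when 1 library was left out, and the count over all genes went from 660 to between 493 and 1449, the highest without myriocin replicate 4. Without DMSO replicates 2 and 4 and myriocin replicates 4 and 5, a choice made after seeing the data, these counts were 4 and 1313.

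With the replicate number as a block (replicate block, 5 pairs), 0 genes were called and 509 had an unadjusted p under 0.05. Libraries with the same number did not deviate together (correlations of -0.13 to 0.09), so the numbers were not taken as pairs. The members' differences moved by less than 1 pooled SD in every alternative run. Without DMSO replicate 2 the sign turned for 9 members: S100a9 went from -0.51 to 1.04, Ngp from -0.77 to 1.06 and Camp from -0.59 to 0.94. Cxcr2 stayed negative at -0.28. Leaving out another single library turned the sign for Ltf, S100a8 and Il1b only. Ltf was at 0.08 without DMSO replicate 4 and at 0.06 without myriocin replicate 3 or 6. Without myriocin replicate 1, S100a8 was at 0.0009 and Il1b at 0.03. The block run also left out myriocin replicate 6, and Ltf was at the same 0.06 there as without that library alone. For Camp, Ltf, Mmp8, Retnlg, Cxcr2 and Il1b each of the 7 low libraries holds fewer than 10 reads, which limits any statement on levels there.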

Other observations

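Slc4a1, the anion exchanger of the red cell membrane, had another order over the libraries than the globin gene Hba-a1 and the neutrophil genes. It was at 9.57 CPM in myriocin replicate 5, 3.07 CPM in myriocin replicate 4, 1.92 CPM in DMSO replicate 2 and 1.82 CPM in DMSO replicate 4, with 0.0437 to 0.441 CPM elsewhere. Hba-a1 was highest in myriocin replicate 4, at 99.4 CPM, and lay at 20.9 CPM in DMSO replicate 2, within its range of 14.8 to 41.3 CPM in the 7 libraries low in neutrophil genes. Both genes were named after their values were seen.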
